A study of Mus musculus with 32 samples.

Results

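Motile cilium genes were taken from 2 mouse count tables by their symbols. The members were Foxj1 and each row whose symbol was Dnah, Dnai, Cfap, Rsph, Drc or Cimap followed by a number and any further letters. This gave 85 of 33280 symbols in each table, of which 82 in the tissue table and 80 in the sorted macrophage table passed the filter on low counts and were tested. The members were Foxj1, 5 outer arm and 10 inner arm dynein heavy chains, 5 dynein intermediate chains, 7 radial spoke proteins, 3 subunits of the nexin-dynein regulatory complex, 48 cilia- and flagella-associated proteins (Cfap) and 6 ciliary microtubule associated proteins (Cimap). The gene set was selected from these data with earlier results known, so the counts for hemispheres in the sorted macrophages are a description and not independent evidence of a direction.

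Wild-type C57BL/6JCrl mice of both sexes, 10 ± 3 weeks old at the first gavage, received BLZ945, an inhibitor of the CSF1 receptor that depletes brain macrophages, at 200 mg/kg for 7 days (BLZ945 mice), or its cyclodextrin vehicle (CTL mice). After 8 weeks, when macrophages had returned, every mouse in both groups had a thromboembolic stroke made by thrombin in the middle cerebral artery, and material was taken 1 day later, so no library came from a mouse without a stroke and the contralateral hemisphere was the reference. There were 4 mice per treatment (A2, A3, A4 and B1 were CTL, and C2, C3, C4 and D1 were BLZ945), and each gave whole tissue and sorted subdural macrophages of the perivascular and leptomeningeal spaces (sdCAMs, subdural central nervous system-associated macrophages, sorted as CD45+CD11b+CD206+ cells negative for Ly6C, Ly6G and CD11c) from the ipsilateral, stroked hemisphere and from the contralateral one. The choroid plexus was taken out before the sort. All libraries were labelled as 1 batch.

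The 16 tissue libraries held 9288717 to 12781505 counts and the 14 sdCAM libraries used held 7397393 to 11081409. The ipsilateral sdCAM libraries of A3 and C2 were labelled as degraded RNA, held 54055 and 55155 counts, and were left out, which left 3 ipsilateral and 4 contralateral sdCAM libraries per treatment. For mouse A3 the tissue column named contralateral in the table carried the number of the library that the labels call ipsilateral (library 19), and the labels were followed. The 9 markers of border macrophages summed to 1592 to 9382 CPM in the sdCAM libraries (CPM are read counts relative to the library total, corrected by the trimmed mean of M values, TMM), and all 9 were detected in each of them.

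Motile cilia beat in waves through dynein motors that walk between the microtubule doublets of the axoneme. Outer arms drive the beat and inner arms shape it, radial spokes and the nexin-dynein regulatory complex coordinate the motors, and many Cfap proteins line the inside of the microtubules or build the central apparatus. Foxj1 is the transcription factor that turns on this programme, together with factors of the RFX family. In the brain, ependymal cells of the ventricle wall carry tufts of motile cilia that move cerebrospinal fluid, choroid plexus epithelium carries cilia and expresses Foxj1, and macrophages are not known to build motile cilia. Cfap20, Cfap36, Cfap97, Cfap298, Cfap410 and Cfap418 are also expressed in cells without motile cilia and were summed apart from the other 79 members. CPM were not divided by gene length, so levels are compared between libraries and not between genes.

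RFX and forkhead factors bind short motifs close to the start sites of cilium genes, so the promoters of the members were searched for such letters. RefSeq promoter windows of mouse build GRCm38.p6, 250 bases before and 50 after the start site, were matched by symbol for 49 members (53 windows), and 7 of the 19 members called below had one. The RFX site GTTGCCAT, on either strand, was in 5 of the 53 member windows (9.43%) and in 442 of all 32851 windows (1.35%). The wider form GTTNCCAT, which contains the first and was chosen after the sequences were seen, was in 10 member windows (18.9%) and in 4.46% of all windows. The forkhead core TGTTTAC was in 3 member windows (5.66%) and in 3.65% of all windows. The 250 bases upstream of 3 members are shown 5′ to 3′ on the coding strand with each match in capitals, and a match is a description of letters, not of bound sites. Cfap161 and Cfap52, which line the doublet microtubules from inside, are shown as the 2 members called in sdCAMs with a match. Cfap20 is shown as the broadly expressed member with a match. The windows of the broadly expressed Cfap36, Cfap298 and Cfap410 held no match in their 250 upstream bases. The windows lie on the minus strand at chr7:83794840-83795089 (Cfap161), chr11:67965643-67965892 (Cfap52) and chr8:95434870-95435119 (Cfap20). The first match starts at position -41 from the start site in Cfap161, at -16 in Cfap52 and at -207 in Cfap20.
Cfap161: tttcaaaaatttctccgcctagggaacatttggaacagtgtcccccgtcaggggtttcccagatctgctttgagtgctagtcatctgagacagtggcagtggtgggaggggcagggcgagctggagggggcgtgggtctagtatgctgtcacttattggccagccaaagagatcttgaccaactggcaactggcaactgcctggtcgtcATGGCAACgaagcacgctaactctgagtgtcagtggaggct
Cfap52: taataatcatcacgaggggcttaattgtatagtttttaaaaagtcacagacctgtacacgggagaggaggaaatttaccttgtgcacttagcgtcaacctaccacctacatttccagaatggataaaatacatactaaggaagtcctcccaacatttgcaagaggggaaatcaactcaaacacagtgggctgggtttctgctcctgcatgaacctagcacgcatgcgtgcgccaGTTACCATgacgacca
Cfap20: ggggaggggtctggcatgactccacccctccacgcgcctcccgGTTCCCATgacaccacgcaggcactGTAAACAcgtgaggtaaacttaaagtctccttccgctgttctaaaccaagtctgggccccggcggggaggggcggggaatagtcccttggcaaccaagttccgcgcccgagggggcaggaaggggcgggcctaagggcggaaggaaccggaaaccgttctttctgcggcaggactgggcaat
Cfap161 held the RFX site on the reverse strand (ATGGCAAC), Cfap52 held the wider form as GTTACCAT, and Cfap20 held GTTCCCAT and, on the reverse strand, the forkhead core (GTAAACA).

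In whole tissue, motile cilium genes were present in each library and no member passed the test between the hemispheres. The 79 members outside the broadly expressed 6 summed to 366.4 ± 61.61 CPM in ipsilateral and 394 ± 122.1 CPM in contralateral tissue of CTL mice (SD, n = 4 each), and to 347.8 ± 69.01 and 397.3 ± 118.1 CPM in BLZ945 mice (n = 4 each). The groups overlapped in both treatments. The ipsilateral-to-contralateral ratio of this sum was below 1 in A2 (0.862), A3 (0.778), C2 (0.913), C3 (0.875) and D1 (0.6), and above 1 in A4 (1.06), B1 (1.15) and C4 (1.31). Each tissue library detected 77 to 83 of the 85 members.

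**Figure D1:**
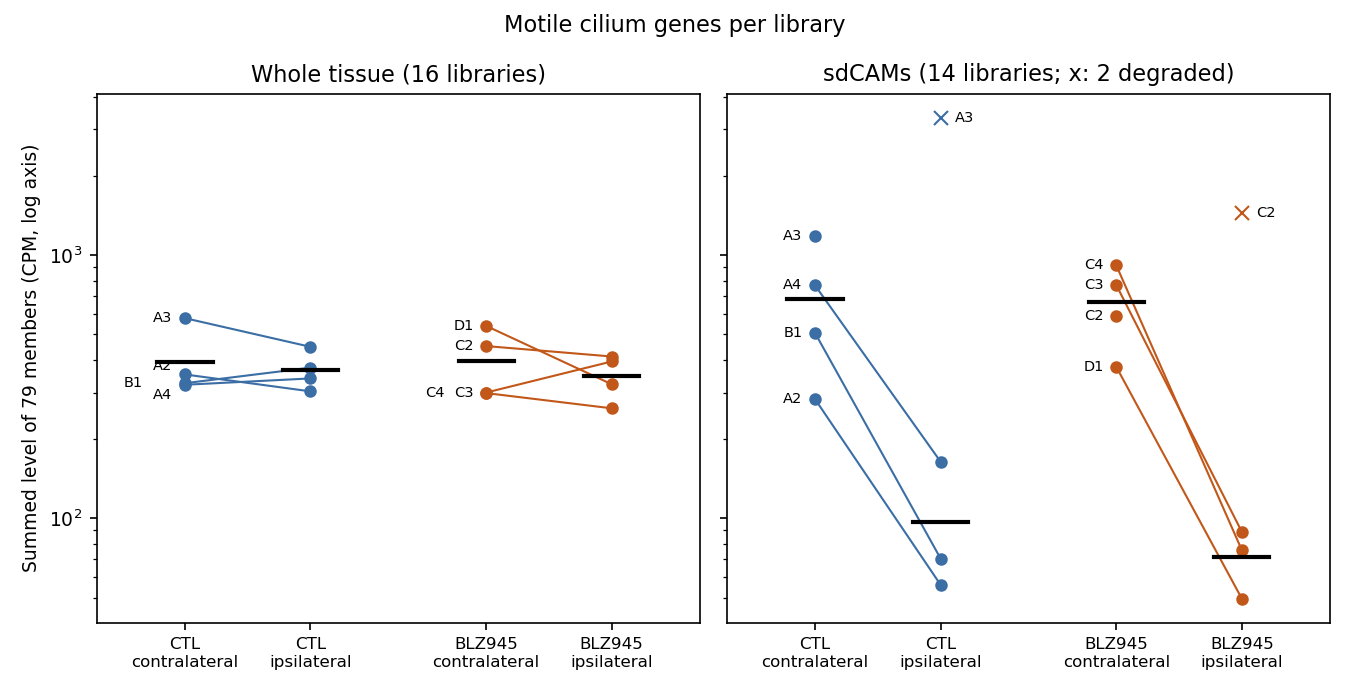
Summed level of the 79 members outside the 6 broadly expressed ones, in CPM on a log axis, for each library. Lines join the hemispheres of 1 mouse, black bars are group means, and crosses are the degraded libraries left out of them (not TMM-scaled). Tissue libraries lie between 261.8 and 576.1 CPM with lines running both ways, while in sdCAMs the ipsilateral libraries (49.52 to 164.2 CPM) lie below the contralateral ones (283.7 to 1177 CPM) in each of the 6 mice.

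With edgeR's quasi-likelihood test, calls required an adjusted p (Benjamini-Hochberg, over all genes tested) below 0.05 together with a log2 fold change beyond 0.59 in either direction. Between the tissue hemispheres 0 of 82 members were called in CTL mice, where 0.443% of all 18968 genes tested were, and 0 of 82 in BLZ945 mice, where 1.16% were. At an unadjusted p below 0.05 there were 2 and 3 of 82 members, fewer than the 6.23% and 10.8% of all genes, and DESeq2 also called 0. The median log2 fold change of the members was -0.08 in CTL mice (quartiles -0.32 to 0.06) and -0.21 in BLZ945 mice (-0.38 to 0.01), beside -0.01 and -0.00 over all genes tested. Negative estimates were seen for 56 and 59 of the 82 members, beside 52.3% and 50.7% of all genes tested. Single mice turned the sign of these medians, which were 0.10 in CTL mice without A3 and 0.04 in BLZ945 mice without D1. The lowest adjusted p was that of Cfap410, a broadly expressed member, in BLZ945 mice (log2 fold change -0.28, SE 0.0835, adjusted p 0.14).

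Foxj1 in tissue was 15.7, 32.7, 13.1 and 29.9 CPM in ipsilateral libraries of A2, A3, A4 and B1, and 20, 26.3, 10 and 17.2 CPM in the contralateral ones. In C2, C3, C4 and D1 it was 31.2, 9.62, 19.3 and 21.5 CPM ipsilaterally and 27.9, 11.2, 14.5 and 33.6 CPM contralaterally. A3 and C2 were high and A4 and C3 were low on both sides, contralateral D1 was the highest library, and the sides overlapped. Drc7, a subunit of the nexin-dynein regulatory complex, lay in separate high and low libraries, with 16.5 to 19.6 CPM in A3, in C2 and in contralateral D1, and 0.802 to 5.19 CPM in the other 11 libraries. Dnah6, an inner arm heavy chain, ran from 2.17 CPM in contralateral A4 to 20.1 CPM in contralateral A3. Rsph1, a protein of the radial spoke head, was 11.9 CPM in contralateral A3 and 2.4 to 9.35 CPM in the other 15 libraries. Cfap36, a broadly expressed member, was by contrast near-constant at 76.2 to 87.8 CPM in all 16.

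Among the CFAP genes the widest fitted tissue differences did not pass the test. Cfap52 was 2.11, 3.43, 1.59 and 2.55 CPM in ipsilateral tissue of the CTL mice in the order A2, A3, A4 and B1, against 0.476, 3.82, 0.825 and 1.11 CPM contralaterally (log2 fold change 0.62, adjusted p 0.999). In BLZ945 mice its estimate had the other sign (-1.26, adjusted p 0.469). Cfap44, part of a complex that tethers inner arm dynein, was 2.5, 4.8, 3.01 and 4.28 CPM ipsilaterally and 4.6, 13.6, 4.64 and 3.98 CPM contralaterally in CTL mice (-0.88, SE 0.517, adjusted p 0.926), with the gap set mainly by contralateral A3. All 10 inner arm and all 5 outer arm heavy chains had negative estimates in CTL mice, with medians of -0.24 and -0.34, but in BLZ945 mice 8 of 10 and 3 of 5 did. The CTL mice were not uniform. In A2, A3, A4 and B1 the ipsilateral-to-contralateral ratio was 0.885, 0.578, 1.26 and 1.23 for the inner arm sum. It was 0.807, 0.631, 0.921 and 1.22 for the outer arm sum. Contralateral A3 held 135.7 CPM of heavy chains, and the other contralateral CTL libraries held 52.2 to 70.55 CPM.

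**Figure D2:**
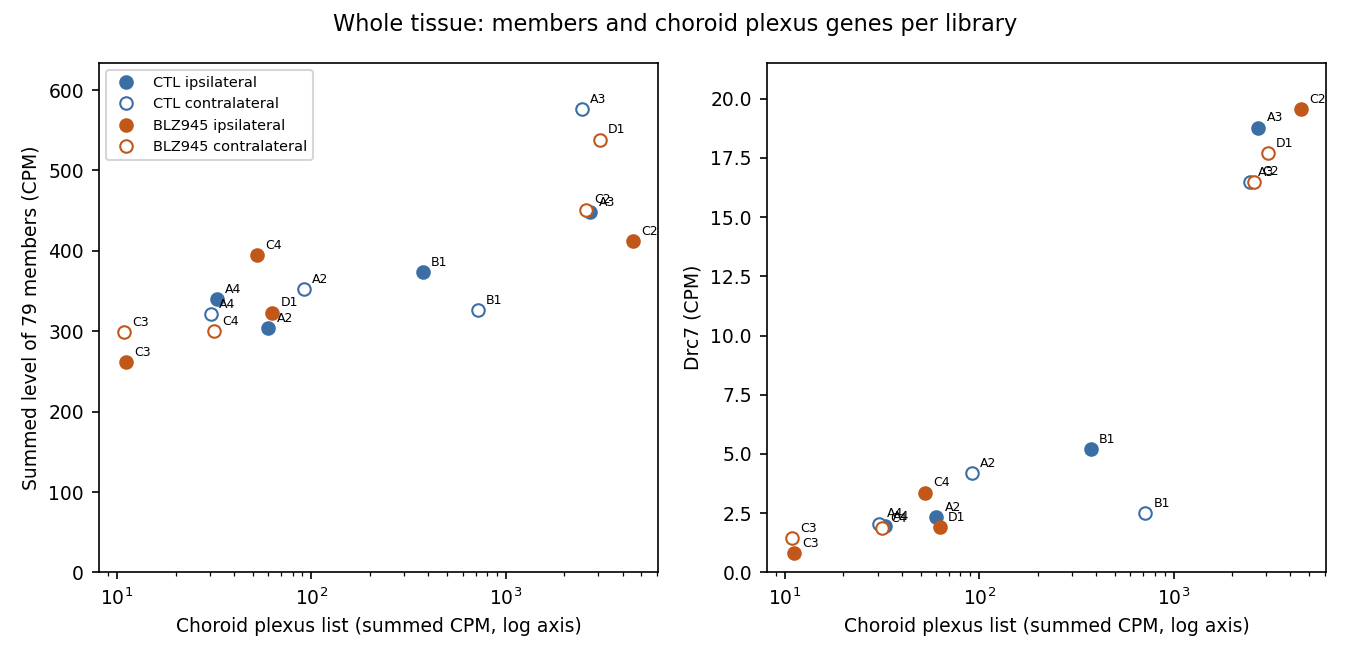
Summed level of the 79 members (left, CPM) and level of Drc7 (right, CPM) against the summed level of the 12 choroid plexus epithelium markers (horizontal axes, CPM, log scale) in the 16 tissue libraries, each a point coloured by treatment and filled where ipsilateral. The 5 libraries of A3, C2 and contralateral D1 have 2472 to 4526 CPM of choroid plexus markers, while the other 11 have 10.87 to 717.2 CPM, and Drc7 is 16.5 CPM or more in these 5.

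The level of the members in tissue correlated with the summed choroid plexus markers of the library, less closely without the 5 libraries highest in these markers. Both libraries of A3, both of C2 and contralateral D1 had 2472 to 4526 CPM of the 12 choroid plexus markers, and the other 11 had 10.87 to 717.2 CPM, with at least 10 of the 12 markers detected in each library. Across the 16 libraries, which come from 8 mice and are not independent, Pearson's r on log2 CPM with the choroid plexus list was 0.94 for Drc7, 0.90 for Cfap126, 0.89 for Dnai3 and for Foxj1, and 0.87 for Dnah9. The member sum had r = 0.82 with this list, 0.41 with ependymal markers outside the cilium, and 0.96 with 56 axonemal and assembly genes that the choice of symbols did not take in. Within the 11 libraries low in choroid plexus markers these values were 0.55, 0.45 and 0.72. Without these 5 libraries the median log2 fold change of the members was 0.10 in CTL and 0.26 in BLZ945 mice, and 0 members were called. The parts of the choroid plexus and of ependymal cells in the tissue values of the members were not tested. The members closest to the sum of the others were Cfap65 (r = 0.93), Cfap43 (0.92) and Dnah6 (0.91), and the genes outside the set most like it were Ttc21a (0.94), Crocc2 (0.93), Clxn, Ccdc162 and Spef2 (0.90 each).

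In sdCAM libraries the members were lower on the stroked side. Their sum over the 79 was 96.84 ± 58.78 CPM in ipsilateral (SD, n = 3) and 683.5 ± 383.8 CPM in contralateral libraries (n = 4) of CTL mice, and 71.35 ± 20.02 CPM (n = 3) and 661.6 ± 232.3 CPM (n = 4) in BLZ945 mice. Each mouse with both libraries had the lower sum on the stroked side, at 0.197 (A2), 0.214 (A4) and 0.139 (B1) of its contralateral library in CTL mice and 0.116 (C3), 0.0829 (C4) and 0.132 (D1) in BLZ945 mice. Contralateral libraries detected 56 to 78 members (median 74) and ipsilateral ones 26 to 47 (median 37.5). In such sorted populations fewer cells of a type and less RNA per cell cannot be told apart.

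In CTL mice 11 of 80 members were called lower on the ipsilateral side (13.8%), where 2.79% of all 18297 genes tested were called. In BLZ945 mice 17 of 80 were called lower (21.2%), where 5.61% of all genes were called. No member was called higher in either treatment, while 78 and 220 of all genes were. At an unadjusted p below 0.05 there were 41 and 48 of 80 members, against 18.3% and 22.3% of all genes. With the mouse as a replicate block, CTL mice had 3 called members in place of 11 (Rsph1, Cfap52 and Cfap144) and BLZ945 mice 13, where 1.6% and 5.19% of all genes were called. In the blocked fit contralateral A3 and C2 had no ipsilateral partner, so the hemisphere difference rested on 3 mice per treatment. Without the block, median log2 fold changes were -4.15 (quartiles -5.53 to -1.72) in CTL and -4.30 (-6.87 to -1.92) in BLZ945 mice, beside -0.11 and -0.15 over all genes. The 17 and 22 members that had no read in any ipsilateral library were also set to the bound of 3 counts per library. With these bounds the medians were -2.82 and -2.94. Within single CTL mice the median log2 ratio of the 80 members, with 0.5 added to each CPM, was -0.35 (A2), -1.99 (A4) and -2.11 (B1). In BLZ945 mice it was -2.20 (C3), -2.24 (C4) and -2.03 (D1). In A2 46 of 80 members were lower ipsilaterally, against 60 to 72 in the other mice. All ipsilateral libraries lay below all contralateral ones for 25 of 80 members in CTL mice, against 10.2% of all genes, and for 40 of 80 in BLZ945 mice, against 12.4%. Single mice moved these counts, which were 3 in CTL mice without A3 or without A4, 6 without B1 and 7 without A2, and in BLZ945 mice 8 without C4, 9 without D1, 10 without C3 and 30 without A2.

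**Figure D3:**
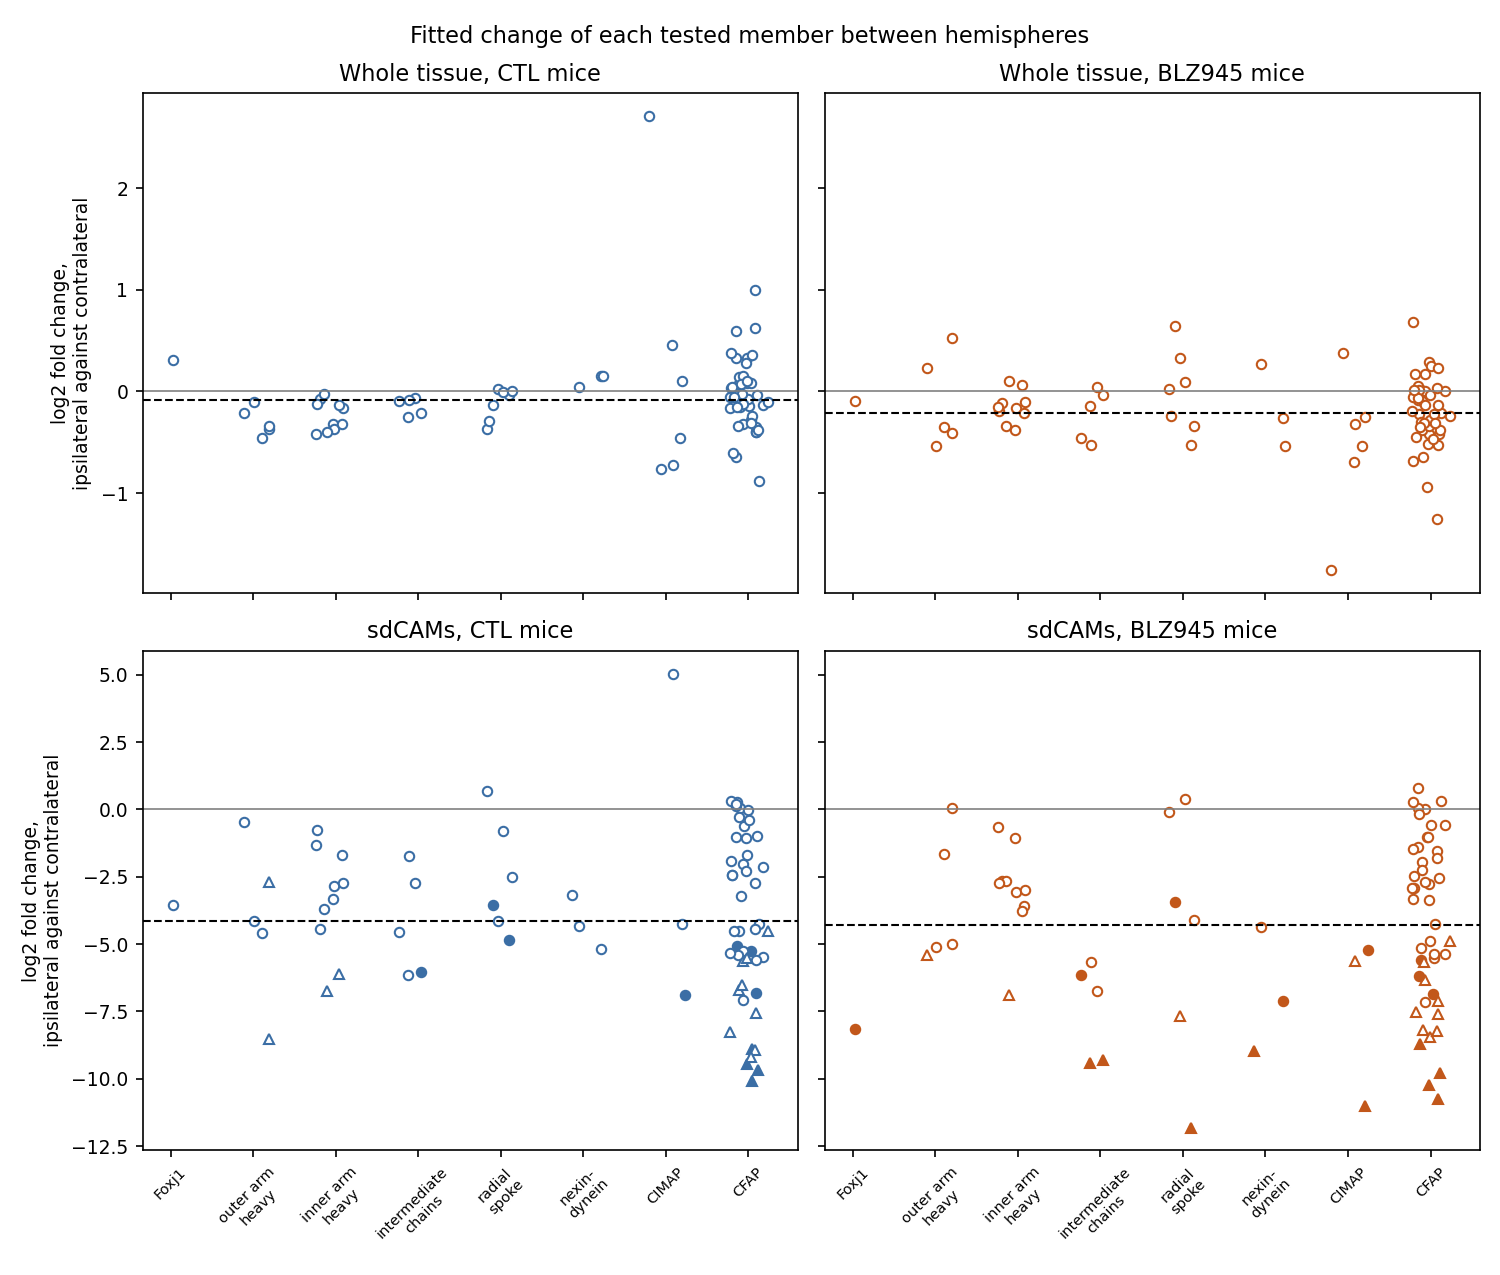
Log2 fold change of ipsilateral over contralateral for each tested member, by role, in tissue and sdCAMs of CTL and BLZ945 mice, with called members filled, triangles for members without a read in the ipsilateral libraries of that treatment, and a dashed line at the median (vertical scales differ between the tables). The tissue values scatter around 0 with none called, and the sdCAM values lie mostly below 0 with 11 (CTL) and 17 (BLZ945) called.

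Foxj1, the regulator of the programme, was 0, 6.1 and 0.858 CPM in ipsilateral sdCAMs of A2, A4 and B1, and 8.46, 40.4, 33.2 and 27 CPM in contralateral ones of A2, A3, A4 and B1. The groups did not overlap, but the difference missed the threshold in CTL mice (log2 fold change -3.56, SE 1.02, adjusted p 0.0761). In BLZ945 mice it was 0.122, 0 and 0.103 CPM in C3, C4 and D1 against 27.7, 36.6, 17.5 and 21.1 CPM in C2, C3, C4 and D1, and it fell by 8.16 on the log2 scale (SE 1.39, adjusted p 0.00422). Ipsilateral counts near 0 make the size of that fold uncertain.

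Dynein heavy chains, the motors themselves, had low levels in sdCAMs and none of the 15 was called in either treatment. Their median log2 fold changes were -3.09 (inner arm) and -4.13 (outer arm) in CTL mice and -2.86 and -5.01 in BLZ945 mice. Dnah5, an outer arm heavy chain, was 0, 0.259 and 0.215 CPM ipsilaterally and 0, 0.194, 8.1 and 3.71 CPM contralaterally in CTL mice (adjusted p 0.27). Those groups overlapped, since contralateral A2 and A3 were as low as the ipsilateral libraries. Dnah9, another outer arm chain, was 0 in all 3 ipsilateral CTL libraries and 0.0941, 10.6, 8.27 and 0.546 CPM contralaterally (adjusted p 0.0792). Dnah1, an inner arm chain, reached 5.06 CPM in contralateral A4 and was 0 in contralateral C3 and D1 (adjusted p 0.317 and 0.486). Dnah7a, Dnah7b and Dnah7c are near-identical copies, and their separate values are uncertain.

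Intermediate chains hold the heavy chains together at the base of a dynein arm, and 1 of 5 was called lower in CTL and 3 of 5 in BLZ945 mice. Dnai2, of the outer arm, was 0, 0 and 0.644 CPM in ipsilateral against 7.05, 14.9, 27.7 and 12.8 CPM in contralateral CTL libraries, and fell by 6.04 on the log2 scale (SE 1.3, adjusted p 0.0283). In BLZ945 mice it was 0 in all ipsilateral libraries and 7.09, 13.5, 10.4 and 3.28 CPM contralaterally. It was thus at least 24.5-fold lower by the bound of 3 counts per library (adjusted p 0.00797). This bound and those below set the contralateral group mean against 3 counts per ipsilateral library, and need not hold in each mouse. Dnai1, its outer arm partner, had values that did not overlap between sides in CTL mice (0 to 1.5 against 6.77 to 19.8 CPM, adjusted p 0.105), and in BLZ945 mice it fell by 6.13 (SE 1.59, adjusted p 0.0356). Dnai3 also fell in BLZ945 mice (adjusted p 0.0307).

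Radial spoke genes had 2 of 6 members called in each treatment, and both encode parts of the spoke head. Rsph1 was 1.76, 0.519 and 2.15 CPM in ipsilateral and 10.8, 69.6, 55.3 and 35.8 CPM in contralateral CTL libraries, and fell by 4.84 on the log2 scale (SE 0.706, adjusted p 0.00531). In BLZ945 mice no ipsilateral library had a read of Rsph1, against 49, 52.4, 64.6 and 28.9 CPM contralaterally, at least 139-fold lower (adjusted p 0.000313). Rsph9 fell by 3.56 in CTL (SE 0.776, adjusted p 0.0246) and by 3.44 in BLZ945 mice (SE 0.764, adjusted p 0.0176), from 14.1 to 81 CPM contralaterally to 1.13 to 6.22 CPM ipsilaterally. Rsph4a, the third head protein named here, was 0, 8.56 and 0 CPM in ipsilateral CTL libraries and 6.58, 17.6, 21.2 and 19.1 CPM contralaterally, and did not pass (adjusted p 0.404 in CTL and 0.181 in BLZ945 mice). Rsph3a overlapped between the sides, at 2.19 to 5.06 CPM ipsilaterally and 1.33 to 4.65 CPM contralaterally, but its reads may be shared with Rsph3b, a near-identical copy.

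The nexin-dynein regulatory complex, the link between neighbouring doublets, had 0 of 3 subunits called in CTL and 2 of 3 in BLZ945 mice. Drc7 was 0, 0 and 1.5 CPM in ipsilateral CTL libraries against 8.28, 31, 24.3 and 14.3 CPM contralaterally (log2 fold change -5.17, adjusted p 0.0651). In BLZ945 mice it was 1.22, 0 and 0 CPM against 3.17, 83.3, 98.7 and 39.1 CPM, and fell by 7.10 (SE 1.55, adjusted p 0.0159). Drc1, the scaffold of the complex, was 0 in the ipsilateral BLZ945 libraries and 12.2, 10.9, 0.404 and 3.49 CPM contralaterally, at least 19.2-fold lower (adjusted p 0.0355). Drc3 did not overlap between sides in CTL (0 to 3.5 against 3.67 to 66.2 CPM) or BLZ945 mice and missed the threshold in both (adjusted p 0.118 and 0.0903).

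**Figure D4:**
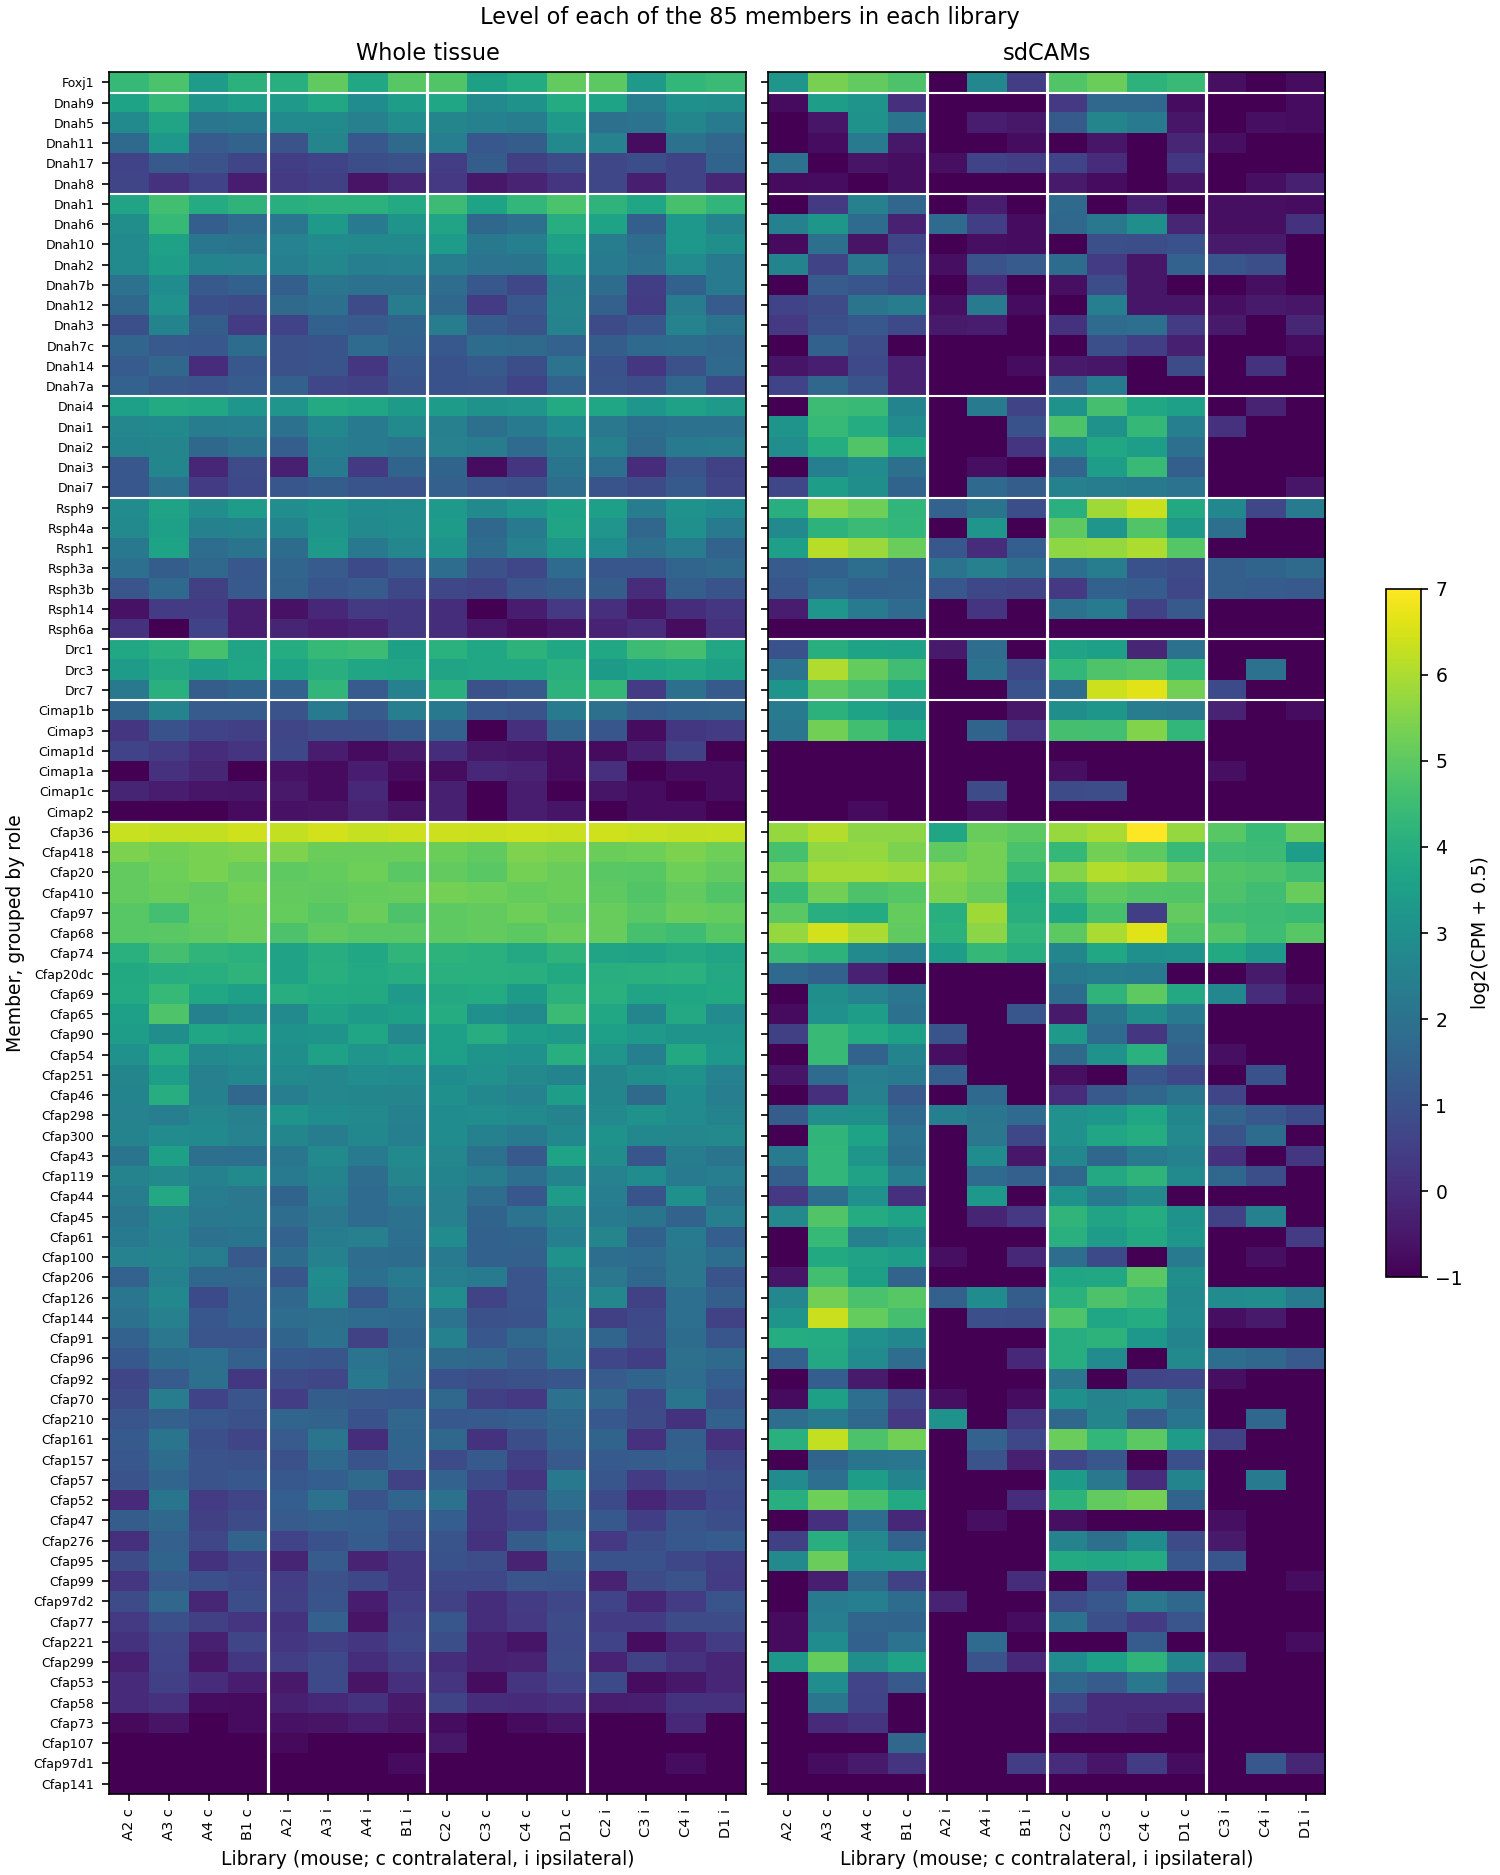
Level of each of the 85 members (rows, by role) in each sdCAM and tissue library (columns, by treatment and hemisphere), coloured by log2(CPM + 0.5). In sdCAMs rows such as Rsph1, Cfap52 and Cfap91 are dark in the 6 ipsilateral columns and bright in the 8 contralateral ones, rows such as Cfap20, Cfap36 and Cfap410 are bright in both, and in tissue no row shows such a split.

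Among the CFAP genes 7 of 47 were called lower in each treatment, and 5 of these (Cfap52, Cfap91, Cfap144, Cfap161 and Cfap206) were called in both. Cfap52 was 0, 0 and 0.536 CPM in ipsilateral CTL libraries against 15.7, 37.4, 24.8 and 14.4 CPM, and fell by 6.82 (SE 1.27, adjusted p 0.0147). In BLZ945 mice it was 0 in each ipsilateral library against 17.5, 33.4, 39.8 and 2.46 CPM, at least 66.4-fold lower (adjusted p 0.00398). Cfap161 fell by 5.06 in CTL (SE 1.16, adjusted p 0.0299) and by 6.17 in BLZ945 mice (SE 1.27, adjusted p 0.0115), with 10.2 to 76 CPM contralaterally and at most 2.33 CPM ipsilaterally. Cfap144, another protein inside the doublets, fell by 5.27 (SE 1.09, adjusted p 0.0189) and 6.87 (SE 1.26, adjusted p 0.00648).

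Cfap91 and Cfap206, which belong to the radial spokes, had no read in any of the 6 ipsilateral libraries used. Cfap91 was 15.1, 14.5, 7.76 and 6.12 CPM in contralateral CTL and 15.3, 17.7, 9.18 and 5.64 CPM in contralateral BLZ945 libraries, at least 30.0-fold and 34.1-fold lower ipsilaterally (adjusted p 0.00531 and 0.00267). Cfap206 was 0.188 CPM in contralateral A2 and 2.4 to 30.6 CPM in the other 7 contralateral libraries, at least 25.8-fold and 45.6-fold lower (adjusted p 0.0356 and 0.0176). Its level in contralateral A2 was itself below 3 counts (0.282 CPM there), so no fall could be seen in that mouse. Cfap95 was at least 40.0-fold lower in CTL mice (adjusted p 0.0273), and in BLZ945 mice ipsilateral C3 had 1.71 CPM beside 1.74 CPM in contralateral D1 (adjusted p 0.111). Cfap276 was called in CTL mice (adjusted p 0.032) and had an adjusted p of 0.0655 in BLZ945 mice. Cfap70 and Cfap299 were called in BLZ945 mice (adjusted p 0.0247 and 0.0336) and had adjusted p of 0.104 and 0.0831 in CTL mice. Cfap44 had similar values on both sides in A4 (9.21 and 7.85 CPM) and no read in any ipsilateral BLZ945 library (adjusted p 1.0 and 0.116).

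The Cimap genes had 1 of 3 members called in CTL and 2 of 3 in BLZ945 mice. Cimap1b was 0, 0 and 0.215 CPM in ipsilateral against 4.33, 17.1, 12.1 and 8.96 CPM in contralateral CTL libraries and fell by 6.89 (SE 1.36, adjusted p 0.0153), and by 5.22 in BLZ945 mice (SE 1.24, adjusted p 0.024). Cimap3, known in mice as pitchfork, was 0, 2.46 and 0.644 CPM against 3.95, 38.6, 23.5 and 13.2 CPM in CTL mice (adjusted p 0.0551), and 0 ipsilaterally against 24.6, 23.8, 44.5 and 19.1 CPM in BLZ945 mice, at least 79.9-fold lower (adjusted p 0.00382).

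The broadly expressed members stood apart from the other members as a sum, but not gene by gene. The sum of the broadly expressed members on the stroked side was 0.435 to 1.0 of the contralateral one (median 0.635) and was lower in 5 of 6 mice. For the other members this ratio was 0.0829 to 0.214. In BLZ945 mice Cfap298 was 1.235 to 2.559 CPM ipsilaterally and 5.848 to 12.71 CPM contralaterally. Cfap20 and Cfap36 did not overlap between sides there either, while Cfap97, Cfap410 and Cfap418 did. Some of the other members, such as Cfap74 and Rsph3b, overlapped between sides in both treatments. Cfap410, which acts in primary cilia, had 42.5, 35 and 14.8 CPM ipsilaterally and 20, 38.5, 26.8 and 28.9 CPM contralaterally in CTL mice, with log2 fold changes of 0.11 and 0.04 in CTL and BLZ945 mice (adjusted p 0.93 and 0.98). Cfap36 was 12.7, 35.1 and 31.3 CPM against 53.2, 66.9, 47.9 and 48.4 CPM in CTL mice (-1.04, adjusted p 0.173) and had -1.38 in BLZ945 mice (adjusted p 0.0534). Cfap20 had -0.61 and -1.04 (adjusted p 0.303 and 0.0628), and Cfap418 had -0.40 and -0.58 (adjusted p 0.611 and 0.373). Cfap68, a doublet protein, was at 17.2 to 48.3 CPM ipsilaterally and 28 to 96.4 CPM contralaterally, and overlapped between sides (adjusted p 0.251 and 0.223).

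Other cilium genes and ependymal markers that the symbols did not take in were read beside the members. Of 56 axonemal and assembly genes tested, such as Tekt1, Mlf1, Ccdc65 and Pierce1, 8 were called lower in CTL and 18 in BLZ945 mice (medians -3.13 and -5.12), and their sum was 0.157 to 0.44 of the contralateral one. The 11 ependymal markers outside the cilium were Tmem212, Rarres2, Mia, Hdc, Calml4, Tm4sf1, Sox2, Cd24a, Vim, S100b and Aqp4. Of these 5 and 7 were called lower (medians -2.79 and -3.47), among them Tmem212 and Rarres2. How far other cells express the 11 was not tested, so their sum does not stand for ependymal cells alone. Of 34 genes of intraflagellar transport, which builds primary and motile cilia alike, 1 was called lower in each treatment (Ift43, by 2.54 and 2.22 on the log2 scale, adjusted p 0.0158 and 0.0179), with medians of -0.58 and -1.0. Of 17 regulators of multiciliated cell formation 0 and 2 were called lower, namely Rfx2 and Trp73 in BLZ945 mice (adjusted p 0.0293 and 0.0357), and the medians were -0.03 and -1.43. This list put Gmnc, Mcidas and Ccno together with general cell cycle and centriole genes such as Cdk1, Plk4 and Stil, which were not read apart. Mcidas and Cdc20b had no read in any ipsilateral sdCAM library used. In tissue 0 of the 56 axonemal genes, 0 of 34 transport genes and 0 of 19 regulators were called. Of the 11 ependymal markers, by contrast, 1 was called higher in ipsilateral tissue of CTL mice (Vim) and 2 in BLZ945 mice (Vim and Tm4sf1). The sum of the 11 was higher on that side in 8 of 8 mice (ratio 1.04 to 1.64). Most single markers did not follow the sum in BLZ945 mice, where the median log2 fold change was -0.12 with 7 of 11 negative. In CTL mice the median was 0.31 with 0 of 11 negative.

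**Figure D5:**
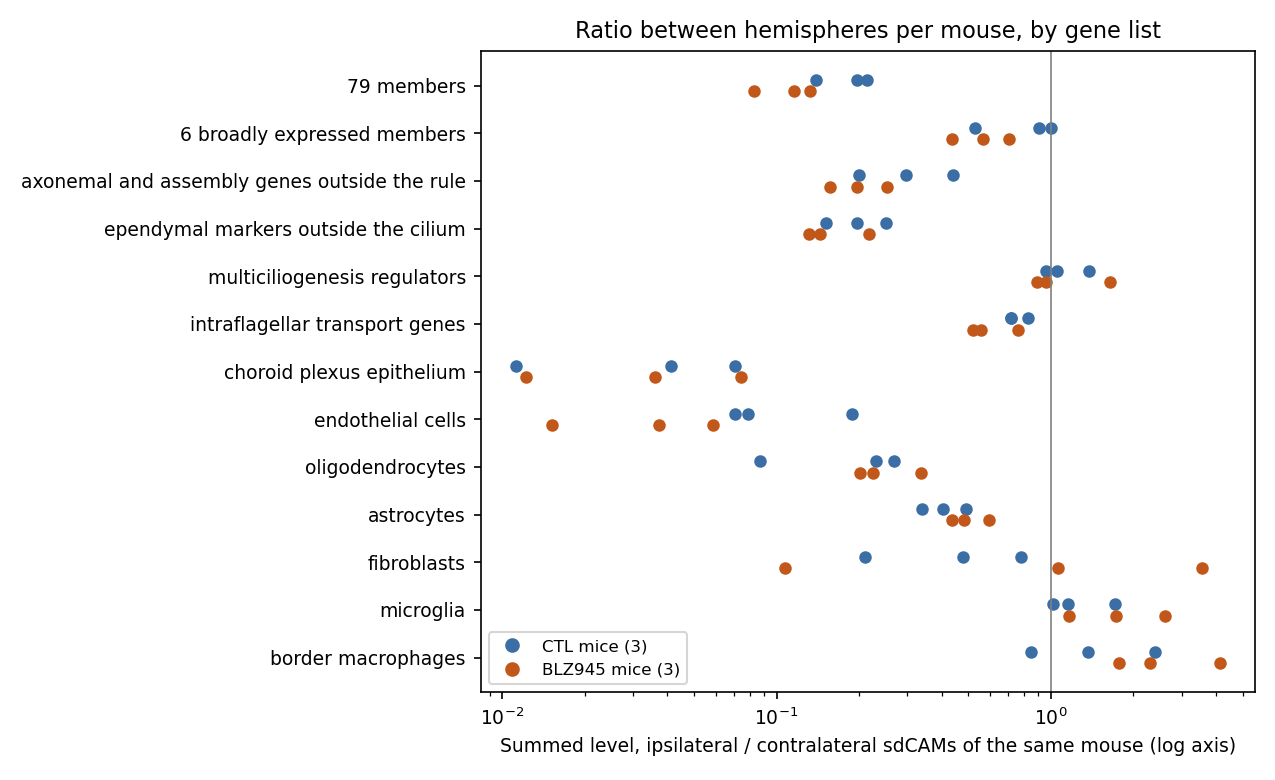
Ipsilateral-to-contralateral ratio of the summed CPM of the members and of the other gene lists in sdCAMs, on a log axis, with 1 point for each of the 6 mice with both libraries, coloured by treatment. The members (0.0829 to 0.214) overlap ependymal markers (0.131 to 0.25) and lie below intraflagellar transport genes (0.519 to 0.825), endothelial and choroid plexus markers reach lower still, and microglial markers lie at 1.02 to 2.61.

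Markers of other cells moved with the hemisphere in the same sdCAM libraries. Of the 6 endothelial markers all 6 were called lower ipsilaterally in both treatments, and their sum ran from 41.8 to 192.4 CPM in ipsilateral and from 854.8 to 2751 CPM in contralateral libraries. The 12 choroid plexus markers summed to 0.502 to 1551 CPM ipsilaterally and 44.77 to 38880 CPM contralaterally, with 0 called in CTL and 1 in BLZ945 mice, and only Slc4a5 was at 0 in all 6 ipsilateral libraries. Oligodendrocyte markers had 2 and 3 of 6 called lower, astrocyte markers 0 and 2 of 6, striatal neuron markers 0 and 1, and neuronal and fibroblast markers none. Border macrophage markers had 0 of 9 called in CTL and 3 called higher in BLZ945 mice, and their sum was 0.845 to 4.12 of the contralateral one, while microglial markers had none called and a ratio of 1.02 to 2.61. Contralateral A3 had the highest member sum (1177 CPM) with 285.1 CPM of choroid plexus markers, and contralateral C4, with 38880 CPM of these markers, had a member sum of 913.3 CPM. Without the contralateral libraries of A4, C3, C4 and D1, which had over 5000 CPM of choroid plexus markers, 0 members were called in CTL mice and 1 in BLZ945 mice (Rsph1, adjusted p 0.0156), where C2 was then the only contralateral library, and the medians were -3.44 and -4.14. This alternative was chosen after the values were seen. The part of the endothelial, ependymal and other cells in the values of the members was not tested.

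Across the 14 sdCAM libraries, which share mice, the member sum had r = 0.99 with the axonemal list, 0.96 with ependymal markers, 0.95 with endothelial markers, 0.90 with transport genes, 0.81 with oligodendrocyte markers, 0.63 with choroid plexus markers, -0.46 with the regulators and -0.82 with border macrophage markers. The members most like the sum of the others were Cimap3 and Cfap299 (0.97 each) with Cfap161 and Foxj1 (0.96 each), and the non-members most like it were Cnn3 (0.99), Slc2a4, Spmip6 and Dusp14 (0.98 each). The libraries fell into a low ipsilateral and a high contralateral cluster. Within the 8 contralateral libraries r was 0.98 with the axonemal list, 0.86 with ependymal, 0.85 with endothelial, 0.45 with choroid plexus and -0.81 with border macrophage markers. Within the 6 ipsilateral libraries it was 0.99, -0.10, 0.25, 0.46 and -0.02 in the same order. For transport genes it was 0.89 contralaterally and 0.72 ipsilaterally.

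The left-out degraded libraries did not share the low ipsilateral level. Ipsilateral A3 had 180 counts on the 79 members, or 3330 CPM (exact 95% interval 2862 to 3853, counting error only), and ipsilateral C2 had 80 counts, or 1450 CPM (1150 to 1805). These 2 values were not TMM-scaled, while those of the 14 libraries used were (factors 0.927 to 1.1). Both exceeded each of the 14. The paper left out both degraded libraries for low alignment. Their border macrophage markers stood at 573.5 and 1650 CPM and their ependymal markers at 296 and 580.2 CPM. Heavy chains held 66.7% and 47.5% of the member counts there, Foxj1 had no count in either, and the most counted members were Dnah2 in A3 (26) and Dnai1 in C2 (11). With all 16 libraries in the fit, 6 members in CTL and 10 in BLZ945 mice were called lower, with medians of -1.94 and -2.98.

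The composition of the member signal also differed between the tables. Dynein heavy chains made up 15.1 to 23.6% of the 79-member sum in the 16 tissue libraries (median 19.4%) and 2.29 to 6.5% in the 14 sdCAM libraries (median 3.99%), with no overlap. Radial spoke genes made up 4.96 to 7.61% in tissue and 7.46 to 19.5% in sdCAMs. The tables were normalized separately, so shares within a library are compared here and not levels across the tables. By the paper's methods RNA was extracted with different kits from sorted cells and from tissue. The part of this preparation in the shares was not tested.

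Repopulation after BLZ945 was compared with CTL on each side to ask whether replaced macrophages, or the tissue around them, differed in these genes. In tissue 0 of 82 members were called between treatments ipsilaterally, contralaterally or for the difference between the hemisphere responses, and neither was any of all genes (0% in each of the 3 comparisons). At an unadjusted p below 0.05 there were 2, 1 and 2 of 82 members, against 4.52%, 3.25% and 2.04% of all genes. In sdCAMs 0 of 80 were called in the same 3 comparisons, where the share of all genes was again 0%, and at an unadjusted p below 0.05 there were 16, 2 and 8 of 80 members, against 5.65%, 6.19% and 4.98% of all genes. Rsph1 had an interaction of -6.98 (SE 1.46, adjusted p 0.694), with 0.519 to 2.15 CPM in ipsilateral CTL and no read in ipsilateral BLZ945 libraries. Foxj1 had -4.60 (adjusted p 0.992), with 0, 6.1 and 0.858 CPM in ipsilateral CTL and at most 0.122 CPM in ipsilateral BLZ945 libraries. DESeq2 called Rsph1 for the interaction (-6.30, adjusted p 0.0164), and between treatments ipsilaterally Rsph1 (-6.10, adjusted p 0.0029), Cimap3 (-5.59, adjusted p 0.0399) and Cfap69 (6.65, adjusted p 0.0489), a protein of the central apparatus that was 0 in the 3 CTL libraries and 6.09, 0.502 and 0.103 CPM in C3, C4 and D1. Counts of 11 and 17 calls in CTL and BLZ945 mice thus stand beside no difference between the treatments that passed edgeR's test.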

How the data were processed

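RNA was sequenced from bulk tissue and sorted sdCAMs as single-end reads. Per the submitters' processing notes the authors used bcl2fastq 2.20, STAR 2.7.11a, featureCounts 2.0.8 and DESeq2 1.46.0. The deposited values are raw read counts per gene symbol, 1 table for tissue and 1 for sdCAMs. The genome build and strand setting of the counts could not be settled, so overlapping and antisense genes cannot be told apart.

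The members and lists were chosen with earlier results of these data known. In each table a gene was kept when its summed count reached 0.5 per library on average, and kept genes were scaled by TMM and fitted with edgeR 4.0.16 (limma 3.58.1, R 4.3.3) over 4 groups of treatment and hemisphere, with p-values adjusted by Benjamini-Hochberg over all genes tested, two-sided. Steps were tested on simulated data. Alternatives were DESeq2 1.42.0, other filters and scaling, all 16 sdCAM libraries, each mouse left out, the A3 hemispheres as the columns name them, and the mouse as a block. The hemispheres of 1 mouse are paired by the animal, and deviations from group means correlated at a median r of 0.335 in tissue (0.142 to 0.543, 8 mice) and 0.117 in sdCAMs (0.0489 to 0.185, 6 mice). Replicate variance was 4.68 to 148 times the sampling variance, so no library was a duplicate.

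Named members were Foxj1, the 2 with the highest mean CPM per role in tissue, the 12 called members with the lowest adjusted p, the 3 with the largest fold change per hemisphere comparison, and the 5 with the highest mean CPM in sdCAMs. Other members were named after their values were seen. The floor was 3 counts, or 0.253 to 0.389 CPM in an sdCAM library, and intervals and floors cover counting error only.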

Additional observations from a re-analysis of the deposited data

Results flagged for a closer look

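The member sum and the named members were checked within each group of 4 libraries by Dixon's test at 95%. Of 172 such checks 15 had a library far from the others, where about 1 in 20 is flagged by chance. The checks share libraries and are not independent, so flags can come together. The contralateral tissue library of A3 stood above the other 3 CTL mice in the 79-member sum (576.1 against 321.7 to 352.1 CPM), Cfap44 (13.6 against 3.977 to 4.642), Cfap206 (5.269 against 2.378 to 2.785), Cimap1b (5.524 against 1.96 to 2.457), Drc7 (16.49 against 2.063 to 4.201) and Rsph1 (11.9 against 3.095 to 4.201). This library was among those high in choroid plexus markers, and its hemisphere differs between the labels and the column name. Ipsilateral A3 tissue had 8.317 CPM of Rsph9 against 6.898 to 7.106, and ipsilateral C2 tissue had 19.55 CPM of Drc7 against 0.8021 to 3.364. In BLZ945 tissue C4 was high for Cfap36 contralaterally (85.69 against 82.05 to 82.5 CPM) and for Cfap144 (3.258 against 0.9445 to 1.203) and Cfap418 (42.15 against 36.46 to 37.36) ipsilaterally. Ipsilateral A2 tissue had 43.34 CPM of Cfap418 against 35.28 to 36.58.

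Among contralateral sdCAM libraries, C4 had 131.1 CPM of Cfap36 against 52.74 to 62.32, D1 had 1.744 CPM of Cfap95 against 13.23 to 14.63, and A3 had 35.7 CPM of Cfap95 against 6.302 to 8.194. The ipsilateral sdCAM libraries with degraded RNA entered only the fit of all 16 libraries. Without TMM scaling they held 3330 CPM (A3) and 1450 CPM (C2) of the 79 members, above the 14 libraries used.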

How the results depend on the processing

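Tissue counts of called members were 0 in all 5 comparisons under each alternative run. The median tissue log2 fold change reversed to 0.14 in CTL mice with the A3 hemispheres as the columns name them, and to 0.26 in BLZ945 mice without the libraries high in choroid plexus markers. Single mice left out also turned it, and it ran from -0.19 to 0.10 in CTL mice (0.10 without A3) and from -0.37 without C4 to 0.04 without D1 in BLZ945 mice. In sdCAMs the counts of 11 (CTL) and 17 (BLZ945) became 32 and 41 with DESeq2, which held all of the 11 and the 17. They were 19 in CTL mice with no filter, 6 and 10 with all 16 libraries, and 0 and 1 without the contralateral libraries high in choroid plexus markers. Leaving out 1 mouse gave 3 to 14 members in CTL and 8 to 30 in BLZ945 mice. With the mouse as a replicate block, 3 of the 11 were called in CTL mice (Rsph1 at adjusted p 0.0359, Cfap52 at 0.0385 and Cfap144 at 0.0215), and 13 in BLZ945 mice, 11 of them among the 17. DESeq2 called 1 member for the interaction and 3 between treatments ipsilaterally, in place of 0. The ipsilateral treatment median of -0.46 in sdCAMs was 0.00 without A4 and ran from -1.02 to 0.00 over the mice left out. The cause of these shifts was not tested. Of the other settings, filterByExpr gave 13 and 23 calls and DESeq2 size factors 13 and 19. Low ipsilateral counts limit the size of the sdCAM folds.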
